A study of Rattus norvegicus with 15 samples.

Results

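Sox9 and Col2a1 are genes of cartilage and fibrocartilage, and they were followed here along the rat Achilles tendon. They were chosen by name, as measures of the fibrocartilage found near the attachment of the tendon to the heel bone. Sox9 is the count-table row ENSRNOG00000002607 and Col2a1 the row ENSRNOG00000058560, so the 2 genes are 2 of 32883 rows. Both passed the filter on low counts that 15037 genes passed, and both had counts in all 15 libraries. The identifiers were given their names when the genes were chosen. Neither the count table nor the gene table used here holds that pairing, so it could not be checked.

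The animals were healthy, untreated male Sprague-Dawley rats, 8 weeks old. The tendon was freed by cuts just below the junction with the muscle and above the bony insertion, and was divided into a proximal, a middle and a distal segment of equal length. Matching segments of the left and right limb were pooled into 1 sample, which gave 5 distal, 5 middle and 5 proximal libraries from 5 rats. Per these protocols, the distal segment was the one nearest to the heel bone, and the bony insertion itself lay outside the tissue taken.

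Sox9 encodes a transcription factor of the SOX family that cartilage cells need in order to form and to keep their identity. With SOX5 and SOX6 it switches on genes of the cartilage matrix, Col2a1 among them. Col2a1 encodes the chain of type II collagen, the main fibrillar collagen of cartilage, whereas tendon is built chiefly of type I collagen. Fibrocartilage, which holds both kinds of collagen, forms in tendon where it joins bone or is pressed against it. Progenitors that express both Sox9 and the tendon factor Scx are known to contribute to the attachment of tendon to bone.

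Distal totals ran from 23530376 to 30178952 gene counts, middle totals from 18866801 to 27817554 and proximal totals from 15413963 to 22205927. Levels are given as CPM (gene counts scaled to a common library size) after scaling between libraries by the trimmed mean of M-values (TMM). Over these libraries Sox9 had 38 to 1113 counts and Col2a1 73 to 32082 counts. The lowest of these, 38 counts of Sox9 in the proximal library of rat 5, has an exact 95% Poisson interval of 26.9 to 52.2 counts, which covers counting error only. Counting error was thus small beside the larger differences between libraries described below, but not beside the smallest. For example, the 48 counts of Sox9 in the proximal library of rat 4 have an interval of 35.4 to 63.6. It overlaps that of rat 5.

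Sox9 was highest in the distal segment of every rat. In distal tendon it stood at 34.8 CPM in rat 1, 27.8 in rat 2, 10.1 in rat 3, 34.8 in rat 4 and 44.9 in rat 5. In middle tendon the values were 11.8 CPM in rat 1, 16.9 in rat 2, 4.55 in rat 3, 7.50 in rat 4 and 2.89 in rat 5. In proximal tendon they were 8.08 CPM in rat 1, 8.54 in rat 2, 4.56 in rat 3, 2.67 in rat 4 and 1.76 in rat 5. All 5 distal values lay above all 5 proximal values, while distal and middle values overlapped, because the distal value of rat 3 lay below the middle values of rats 1 and 2. Middle and proximal values overlapped widely.

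**Figure D1:**
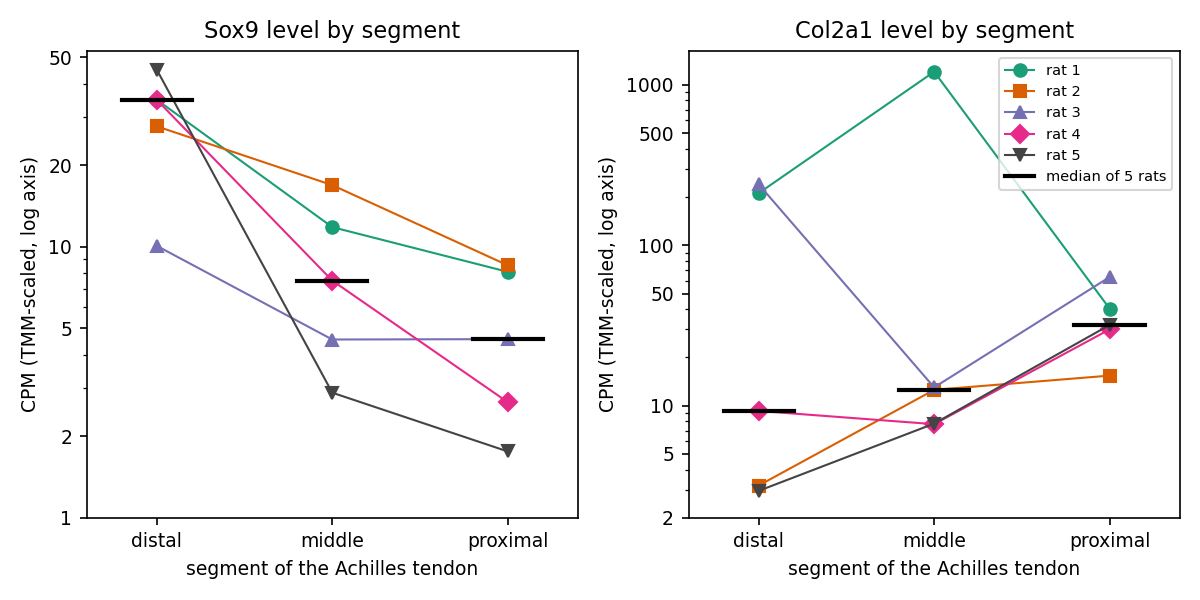
Level of Sox9 (left) and Col2a1 (right) in CPM on a log axis in distal, middle and proximal tendon; each line is 1 rat, and black bars are medians of 5 rats. Sox9 falls from distal to proximal in all 5 rats, while Col2a1 is highest in the middle library of rat 1, at 1207 CPM, and is high in the distal libraries of rats 1 and 3.

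Averaged over the 5 rats (± SD, n = 5), Sox9 was at 30.5 ± 12.9 CPM distally, 8.73 ± 5.68 CPM in the middle and 5.12 ± 3.09 CPM proximally. From distal to proximal it fell by 2.70 ± 0.50 on the log2 scale (approximate SE), a 6.50-fold difference (edgeR quasi-likelihood fit blocked on rat, adjusted p = 0.00181). The approximate 95% interval of this log2 fold change was -3.81 to -1.60. In the same comparison 41.9% of all genes tested were called, and 19.7% were called lower in proximal tendon, so the call itself did not set Sox9 apart. Its size was further out: of the 2969 genes called lower in proximal tendon, 108 had a larger log2 fold change than Sox9, and the median of those called was -0.56. In these bulk samples, fewer cells expressing a gene and less of its RNA per cell cannot be told apart.

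The size of the Sox9 gradient differed between rats. The proximal minus distal difference in log2 CPM was -2.10 in rat 1, -1.69 in rat 2, -1.13 in rat 3, -3.66 in rat 4 and -4.61 in rat 5. Rat 3 had the lowest distal level and the smallest difference, and rat 5 the highest distal level and the largest difference. The distal level is itself part of the difference. Rats 1 and 4 were both at 34.8 CPM distally, with differences of -2.10 and -3.66. The mean within-rat difference was -2.64 ± 1.45 (SD, n = 5), and the difference was negative in 5 of 5 rats. An exact two-sided permutation of region labels within rats gave an unadjusted p = 0.000514 for this mean. That test was added after the data were seen. It moved the labels of all 3 segments, so the middle values enter its p, which is not for proximal against distal alone.

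By these estimates the larger part of the Sox9 difference lay between distal and middle tendon, although the sizes of the 2 steps were not tested against each other. Sox9 was lower in middle than in distal tendon in 5 of 5 rats, with a log2 fold change of -1.99 ± 0.47 (approximate SE; 95% interval -3.04 to -0.94), a 3.96-fold difference (edgeR, adjusted p = 0.0132). Here 24.8% of all genes tested were called, and 11.6% were called lower in middle tendon. The within-rat differences in log2 CPM ran from -0.72 in rat 2 to -3.92 in rat 5. Rat 2 was the only rat with a larger drop between middle and proximal tendon, where its difference was -0.97. This call was lost when rat 4 was left out (log2 fold change -1.90, edgeR adjusted p = 0.0665) or its distal library alone (-1.83, edgeR adjusted p = 0.0535).

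Between middle and proximal tendon the Sox9 difference did not pass the test. The log2 fold change, proximal against middle, was -0.71 ± 0.48 (approximate SE; edgeR, adjusted p = 0.430), with a 95% interval of -1.78 to 0.35. Sox9 was lower in proximal than in middle tendon in 4 of 5 rats, and in rat 3 both segments stood at nearly the same level. This comparison called 0.412% of all genes tested. Across all 3 segments Sox9 differed in the F test of any region (edgeR, adjusted p = 0.00322), as did 37.4% of the genes tested. The order distal over middle over proximal held for Sox9 in 4 of 5 rats, and 9.31% of the genes tested had that order in at least 4 rats. The distal segment was the highest in all 5 rats for Sox9 and for 12.7% of the genes tested.

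**Figure D2:**
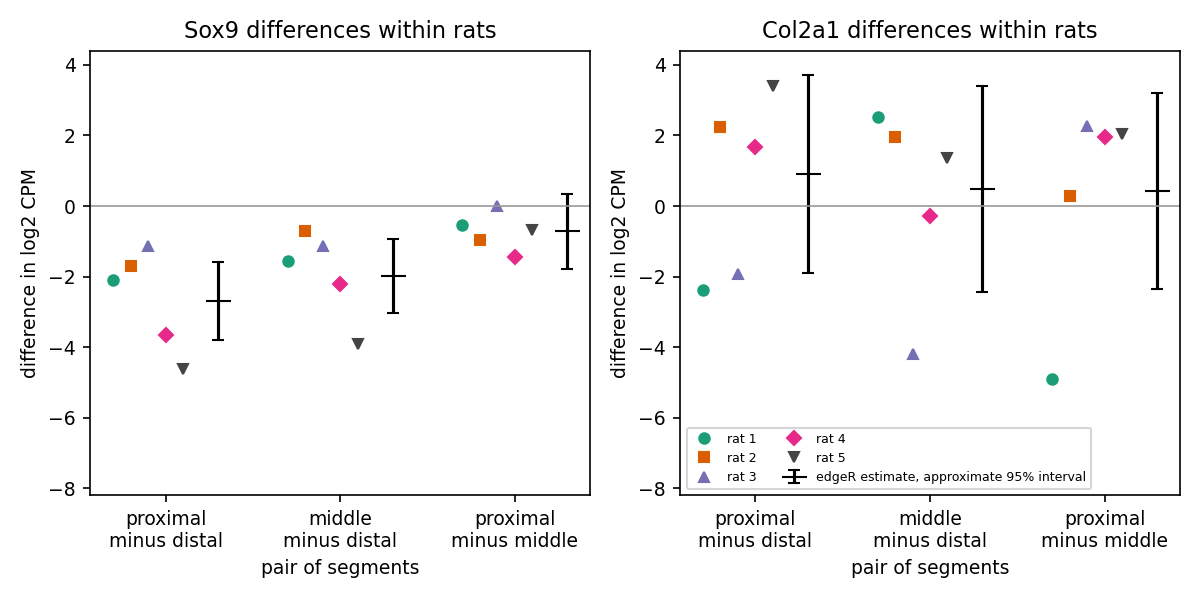
Differences in log2 CPM between segments of the same rat for Sox9 (left) and Col2a1 (right); coloured points are single rats, and black bars are edgeR log2 fold changes with approximate 95% intervals. All 5 rats lie below 0 for Sox9 in proximal minus distal and middle minus distal, whereas the rats lie on both sides of 0 for Col2a1 in each pair of segments.

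Many genes followed the course of Sox9. Likeness was measured by Pearson's r of log2 CPM over the 15 libraries, which come from 5 rats and share depth and scaling between genes, among 12527 genes with a mean of at least 1 log2 CPM. The most alike gene was ENSRNOG00000008336 (r = 0.975), at 229.6 ± 71.3 CPM distally, 63.2 ± 44.4 CPM in the middle and 26.8 ± 17.1 CPM proximally (SD, n = 5). The next was ENSRNOG00000014879 (r = 0.973), at 210.2 ± 27.6 CPM distally, 103.1 ± 33.0 CPM in the middle and 83.5 ± 22.2 CPM proximally. With the mean of each segment subtracted, their r with Sox9 over all 15 libraries was still 0.944 and 0.939. Both genes were picked by their r in these same libraries, so these values are a description. No r was computed within a single segment. In all, 221 genes had r above 0.9 with Sox9 and 159 had r below -0.9. Such counts were not made for genes other than Sox9 and Col2a1, so they do not set Sox9 apart.

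Col2a1 did not share this course. In distal tendon it stood at 211.2 CPM in rat 1 and 239.6 in rat 3, against 3.18 in rat 2, 9.27 in rat 4 and 2.95 in rat 5. In middle tendon it reached 1207 CPM in rat 1, against 12.6 in rat 2, 13.0 in rat 3, 7.67 in rat 4 and 7.73 in rat 5. In proximal tendon it was at 40.3 CPM in rat 1, 15.4 in rat 2, 63.3 in rat 3, 29.9 in rat 4 and 31.8 in rat 5. Thus 3 libraries, distal and middle of rat 1 and distal of rat 3, stood far above the rest, and the 3 segments overlapped.

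The mean and the median of Col2a1 ordered the segments differently. The means were 93.2 ± 121.1 CPM distally, 249.6 ± 535.2 CPM in the middle and 36.1 ± 17.6 CPM proximally (SD, n = 5), and the SD exceeded the mean in distal and middle tendon. The medians were 9.27, 12.6 and 31.8 CPM in the same order of segments. The direction depended on the rat. In rats 1 and 3 Col2a1 was 5.24-fold and 3.78-fold higher in distal than in proximal tendon, and in rats 2, 4 and 5 it was 4.84-fold, 3.22-fold and 10.8-fold higher in proximal than in distal tendon.

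No difference in Col2a1 between segments passed the test. The log2 fold change of proximal against distal was 0.91 ± 1.25 (approximate SE; edgeR, adjusted p = 0.590), with a 95% interval of -1.89 to 3.70. That of middle against distal was 0.48 ± 1.30 (edgeR, adjusted p = 0.823; interval -2.42 to 3.39), and that of proximal against middle 0.42 ± 1.24 (edgeR, adjusted p = 0.880; interval -2.36 to 3.21). These intervals hold differences of more than 3-fold in either direction, so the data do not show that the segments were alike in Col2a1. The F test of any region did not pass either (edgeR, adjusted p = 0.826). With the middle library of rat 1 left out, the middle against distal estimate was -1.14 (edgeR, adjusted p = 0.578). With the distal library of rat 3 left out, the proximal against distal estimate was 2.198 (edgeR, adjusted p = 0.126).

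**Figure D3:**
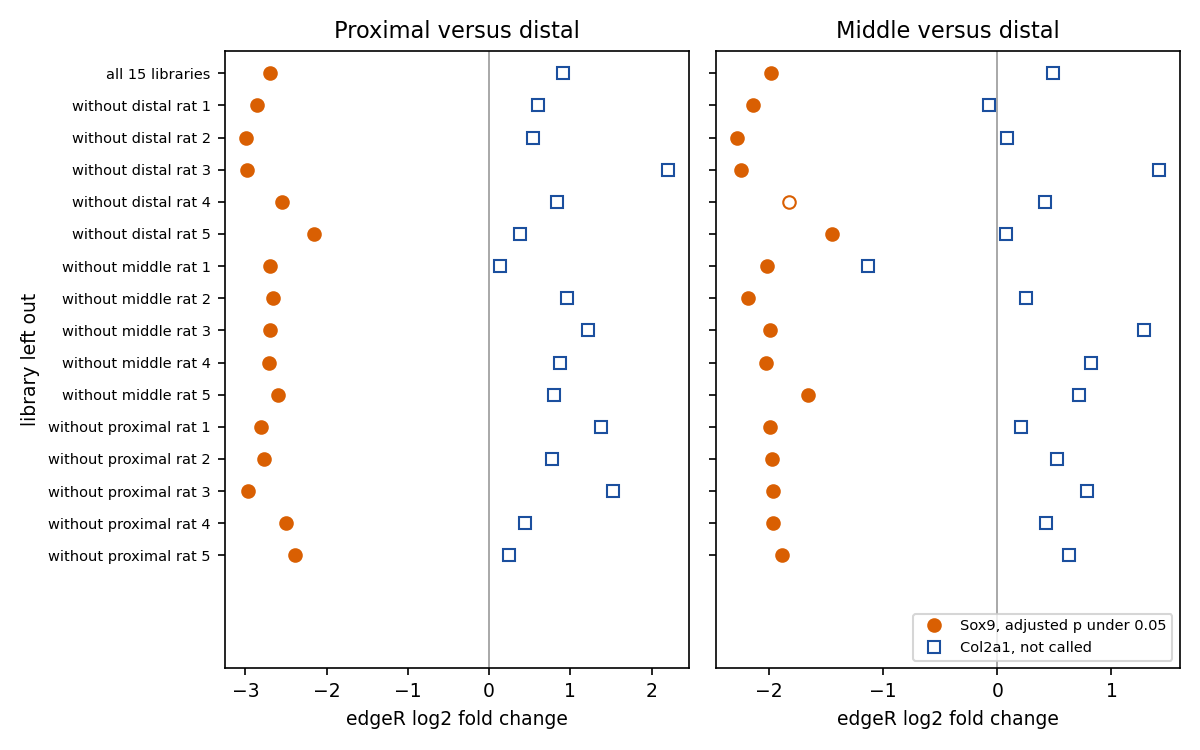
Log2 fold change (edgeR) of Sox9 (circles) and Col2a1 (squares) with all 15 libraries and with each library left out in turn, for proximal versus distal (left) and middle versus distal (right); filled symbols have an adjusted p under 0.05 and open symbols do not. Sox9 stays below 0 throughout and loses its call in the right panel without the distal library of rat 4, while Col2a1 moves between -1.14 and 2.198 over the libraries left out and is not called in any of these fits.

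The spread of Col2a1 between rats was among the widest of all genes in distal and middle tendon. The SD of its log2 CPM was 3.15 in distal tendon, where 2 of the 15037 genes had a higher SD and the median gene had 0.177. In middle tendon its SD was 3.11, with 18 genes higher and a median of 0.255. In proximal tendon its SD was 0.739, which 1534 genes exceeded, against a median of 0.248, and all 5 rats lay within a 4.11-fold range. The corresponding ranges were 81.3-fold in distal and 157.3-fold in middle tendon. The spread of Sox9 was more alike in the 3 segments and also wide: its SDs were 0.837 distally, 1.01 in the middle and 0.971 proximally, with 464, 545 and 818 genes higher. Its ranges over rats were 4.46-fold, 5.83-fold and 4.86-fold. In proximal tendon its SD and range were thus above those of Col2a1, which was not tested. Sox9 had fewer counts there, 38 to 177, against 319 to 1055 for Col2a1.

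**Figure D4:**
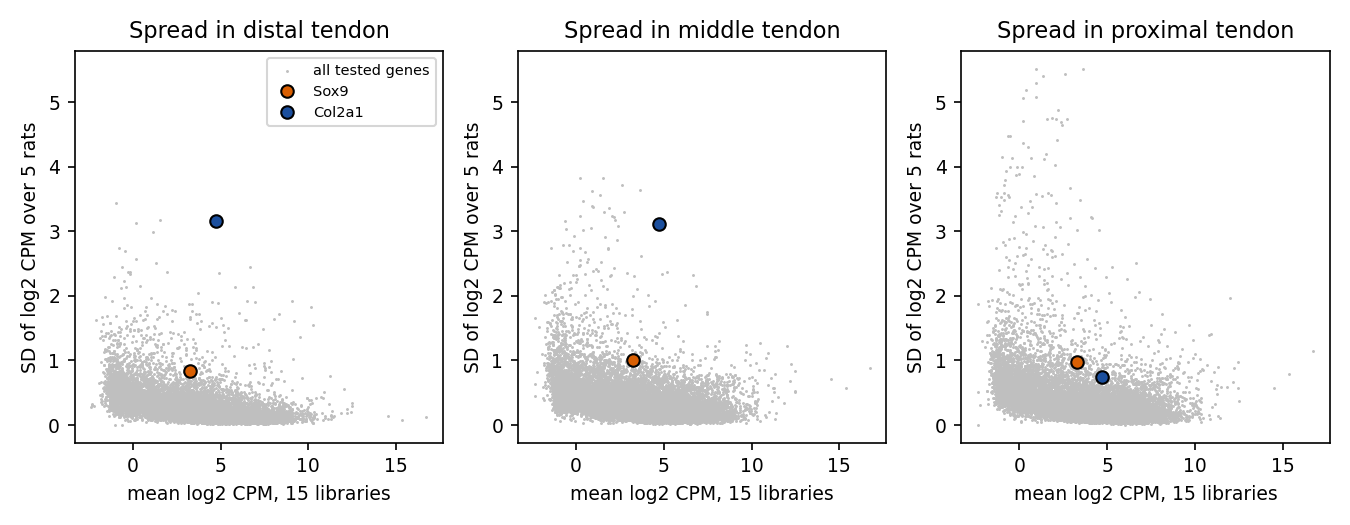
SD of log2 CPM over the 5 rats against mean log2 CPM over 15 libraries for all 15037 tested genes (grey), Sox9 (orange) and Col2a1 (blue), in distal, middle and proximal tendon. Col2a1 is near the top of all genes in distal and middle tendon, with SDs of 3.15 and 3.11, and is less extreme in proximal tendon, with 0.739.

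In the middle library of rat 1, Col2a1 had 32082 counts, 0.115% of the library, and was the gene of rank 49 by count. Its level there was 92.8-fold that of the next middle library. Genes at least 8-fold above each of the other 4 middle libraries, and at 2 CPM or more, numbered 9 in this library including Col2a1. The same count was 65 genes in the middle library of rat 5, which does not hold Col2a1, and 0 to 2 in those of rats 2, 3 and 4. Apart from Col2a1, the median level of the 8 other genes was 44.2 CPM in the middle library of rat 1 and 0.382 to 0.540 CPM in the other middle libraries.

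These 8 genes were also high where Col2a1 was high in distal tendon. Their median was 7.61 CPM in rat 1 and 9.66 CPM in rat 3 distally, against 0.654 to 0.957 CPM in the distal libraries of rats 2, 4 and 5. For 7 of the 8 genes, the distal levels of both rats 1 and 3 exceeded those of all other rats, which held for 8.92% of all genes tested. In proximal tendon their median was between 0.265 and 1.33 CPM. The set was picked after the values had been seen, on the library where Col2a1 was highest, so these numbers are a description. Sox9 did not stand out in the same libraries. In rat 1 it was second among the middle libraries and second among the distal libraries, where it was nearly level with rat 4. It was lowest among the distal libraries in rat 3, the distal library with the highest Col2a1.

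Among the 12527 genes with a mean of at least 1 log2 CPM, the most alike to Col2a1 over all 15 libraries were ENSRNOG00000013954 (r = 0.769), at 8.84 ± 3.20 CPM distally, 14.4 ± 13.9 CPM in the middle and 8.51 ± 1.63 CPM proximally (SD, n = 5), and ENSRNOG00000004063 (r = 0.755), at 22.9 ± 8.24, 26.7 ± 7.33 and 20.7 ± 2.81 CPM in the same order. In the middle library of rat 1 they stood at 38.9 and 39.0 CPM, their highest values. Neither gene's proximal-distal difference passed the test (edgeR, adjusted p = 0.960 and 0.724). Within these 12527 genes, 0 had r above 0.9 or below -0.9 with Col2a1, and 6 had r above 0.7, against 1807 for Sox9. The usual count for a tested gene was not computed. Of the 8 genes described above, 6 lay under this minimum level. The r of the 8 genes with Col2a1 ran from 0.439 to 0.840, the latter being the highest over all genes tested.

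Col2a1 and Sox9 showed little correlation. Over the 15 libraries their log2 CPM had r = -0.111, with r = -0.0505 after the segment means and -0.310 after the rat means were subtracted, given as a description of libraries that share rats. The log2 ratio of Col2a1 to Sox9 counts, in which library scaling cancels, averaged -0.36 ± 3.73 distally, 1.84 ± 2.83 in the middle and 2.92 ± 1.35 proximally (SD, n = 5). The ratio depends on the lengths of both genes, so its change between segments was compared and not its level. From distal to proximal tendon it changed by 3.27 ± 3.78 (SD, n = 5), higher in 3 of 5 rats (p = 0.0514, exact two-sided permutation of region labels within rats). This permutation moved the labels of all 3 segments, so the middle values enter its p, which is not for proximal against distal alone. The difference did not pass the test, and its p depended on the rat left out (exact permutation). It was 0.0231 without rat 1 and 0.0293 without rat 3, the rats in which the ratio fell, at changes of 4.16 and 4.29. It was 0.136 without rat 2, 0.167 without rat 4 and 0.201 without rat 5, at changes of 3.10, 2.75 and 2.07. The middle values enter all of these p-values as well, so none of them tests proximal against distal alone. Those with a rat left out also rest on fewer arrangements of the labels.

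**Figure D5:**
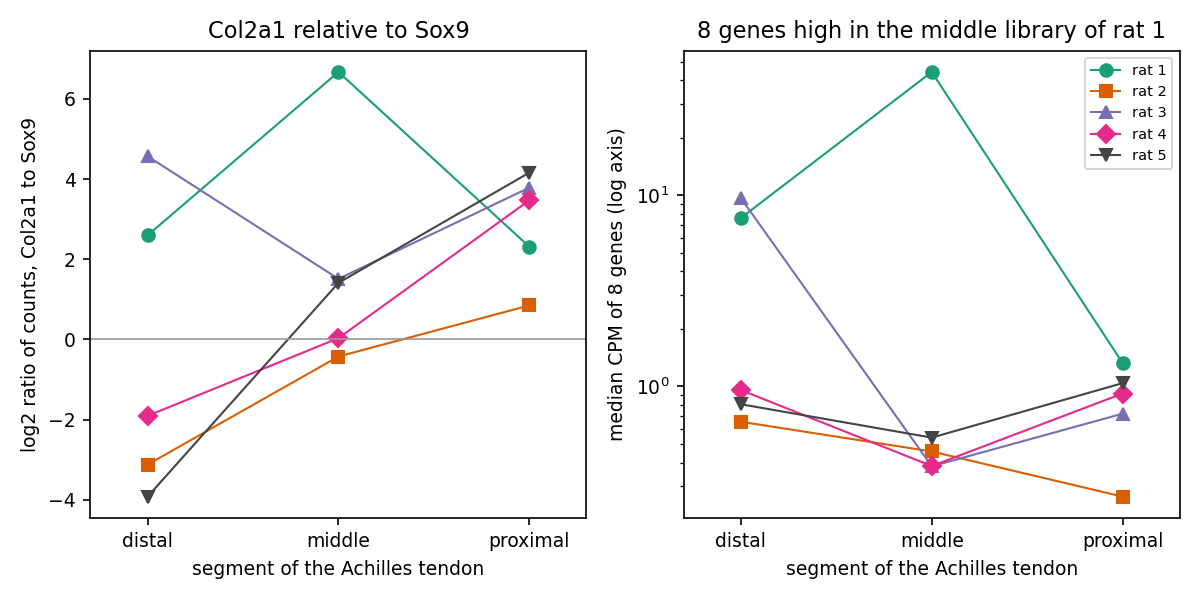
Left, log2 ratio of Col2a1 to Sox9 counts by segment, 1 line per rat; right, median CPM (log axis) of the 8 genes other than Col2a1 that were at least 8-fold higher in the middle library of rat 1 than in each other middle library. The ratio rises from distal to proximal in rats 2, 4 and 5 and not in rats 1 and 3, and the 8 genes are high in the distal and middle libraries of rat 1 and the distal library of rat 3.

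Set side by side as measures of distal tendon, Sox9 was higher in distal than in proximal tendon in 5 of 5 rats, and Col2a1 in 2 of 5 rats. Other cartilage, bone, muscle and tendon markers could not be matched to identifiers, so the cell types in each segment were not assessed and their part in either pattern was not tested.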

How the data were processed

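RNA-seq libraries (poly(A)-selected, strand-specific, paired-end) were made from 3 segments of the Achilles tendon of 5 rats. The authors deposited raw read counts per Ensembl gene, not normalized. The submitters' processing notes name HISAT2 2.2.1, featureCounts 2.0.1, fastp 0.19.10, SAMtools 1.9 and build rn6. Strand setting and annotation release are not stated there, so reads of overlapping or antisense genes may be shared. All 32883 rows name a gene, and 10178 were at 0 in all libraries. Of these identifiers, 0 have a symbol in the RefSeq gene table for assembly GRCr8. Lists of cartilage, signalling and cell type markers were therefore not applied, and no sequences are given.

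The genes and lists were chosen with earlier results of these data known. Tests used edgeR 4.0.16 in R 4.3.3 (filterByExpr by segment, TMM, robust quasi-likelihood fit on segment and rat over all 15 libraries). P-values were adjusted by Benjamini-Hochberg over all 15037 genes and called under 0.05. Standard errors and 95% intervals come from the fold change and its F statistic and are approximate. Log2 CPM used a prior count of 2, and the ratio of Col2a1 to Sox9 a pseudocount of 0.5. Exact permutation tests over all 5 rats used the 7776 arrangements of the 3 segments within rats, where 0.000257 is the smallest p. With a rat left out there are fewer arrangements, and the smallest p is larger. The ratio was tested this way as planned, and each gene by itself as an addition, all without adjustment. Genes of like pattern were named as the 2 with the highest r to each gene. A list of 5 each was planned for identifiers with symbols. Same-numbered libraries come from the same animal, and their deviations from segment means had r above 0.1 in 13 of 15 pairs. The closest of 105 pairs of libraries had a chi-square of 20.4 per degree of freedom, so none was a copy of another. DESeq2 1.42.0, limma 3.58.1, other scalings and filters, and leaving out rats or libraries were alternatives. The fitting code was tested on simulated data.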

Additional observations from a re-analysis of the deposited data

Results flagged for a closer look

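In 9 sets of 5 libraries (Sox9, Col2a1 and their ratio in each segment), 2 held 1 library far from the rest, where chance gives about 0.45 sets. Both came from the middle segment of rat 1. The measures share Col2a1 and are not independent. Its Col2a1 level was 10.24 log2 CPM, against 2.96 to 3.71 in the other middle libraries. Its log2 ratio of Col2a1 to Sox9 counts was 6.67, against -0.43 to 1.51.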

How the results depend on the processing

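Leaving out single libraries or rats was planned, and the permutation test of each gene by itself was added after seeing the data. That permutation moves all 3 segment labels, so its p is not for a single pair of segments alone. Sox9 kept its direction and its call for proximal against distal in all 30 alternatives run (log2 fold change -3.07 to -2.15). For middle against distal it kept both in 28 of 30, with -2.33 to -1.45 over the libraries and rats left out. These alternatives include the exact permutation, which was counted as a call by its unadjusted p. For Sox9 in middle against distal that p was 0.0419 (exact permutation), so its threshold is unlike that of the adjusted p-values. Col2a1 was not called in any alternative, but its sign was not stable. With no replicate block it was -1.37 for proximal against distal and -2.79 for proximal against middle, and with limma -0.27 for proximal against distal and -0.33 for middle against distal. Over libraries and rats left out, it ran from -1.14 to 1.62 for middle against distal and from -0.38 to 1.52 for proximal against middle. The change in the ratio of Col2a1 to Sox9 ran from 2.07 to 4.29 with 1 rat left out. The replicate block changed no call of either gene (Sox9 without it -2.57, -1.80 and -0.77, for proximal against distal, middle against distal and proximal against middle). Without TMM scaling the median of all genes shifted by 0.152 log2 units from distal to proximal, and Sox9 then stood at -2.57. The background count of middle against distal genes was 3731, and 2303 with no replicate block, 1849 without rat 4 and 2266 without its distal library. That of any region was 5629, and 3262 without rat 4. The proximal against middle count was 62, and was 0 with no replicate block (edgeR, 2204 genes at an unadjusted p under 0.05), 20 by library totals, 10 with at least 10 counts in every library, 19 with the compared segments alone, 98 with limma, 1198 with DESeq2 and 0 to 536 with a library or rat left out (536 without the proximal library of rat 2). The cause was not tested.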
